A study of Mus musculus with 6 samples.

Results

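The 31 genes described here are markers of macrophages and other myeloid cells, read in tumours that B16F10 cells, a mouse melanoma line that makes pigment, formed under the skin. They were found by gene symbol in the deposited table, where each of the 31 has 1 row among 55349 genes. They fall into 3 complement genes (C1qa, C1qb and C1qc), 7 genes of alternatively activated macrophages (Mrc1, Cd163, Folr2, Arg1, Mgl2, Clec10a and Ear2) and 21 genes shared by many myeloid cells, called pan-myeloid below. The study set tumours of a Sqle knockdown derivative, labelled shSQLE (genotype SQLE knockdown, replicates 1, 2 and 5), against tumours labelled shControl (genotype WT, replicates 1, 4 and 5), with 3 RNA sequencing libraries per group. Both groups share the cell line, the subcutaneous site and the absence of any treatment. Sqle encodes squalene epoxidase, an enzyme of cholesterol synthesis, and the knockdown is carried by the melanoma cells and not by the host. The strain, sex and age of the mice, the number of shRNAs or clones behind the shSQLE cells, and whether each library is a separate animal are not stated in the labels. The p-values therefore cover no more than library-to-library spread, part of which may be technical.

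Tumour macrophages arise from blood monocytes, which enter tissue through the chemokine receptor Ccr2, and from resident cells, and they depend on signals through the receptor Csf1r. The transcription factor Spi1, also called PU.1, is needed for the myeloid lineage. Many macrophages of tissues and tumours make C1q, the recognition subunit of the classical complement pathway, from the genes of its A, B and C chains. Alternative activation is the state that the cytokines Il4 and Il13 induce, marked by scavenger and lectin receptors and by arginase.

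The markers were present in both groups, and their sum was far below that of the pigment cell genes. Of the 31 genes, 30 had reads in every library, and Ear2 had 0 counts in shSQLE replicate 1. Summed over the 31, the level was 140, 367 and 681 CPM (counts scaled to the same library size) in shSQLE replicates 1, 2 and 5, against 432, 238 and 834 CPM in shControl replicates 1, 4 and 5. The groups overlapped, and the summed level differed more inside each group than between the group means, which were 396 ± 271 CPM in shSQLE and 501 ± 304 CPM in shControl (SD, n = 3 each). For scale, 10 melanocyte genes summed to between 15000 and 17600 CPM in the shSQLE libraries and between 13600 and 15800 CPM in the shControl libraries. In a mixture of tumour and host RNA, fewer macrophages and less of a transcript per macrophage cannot be told apart.

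**Figure D1:**
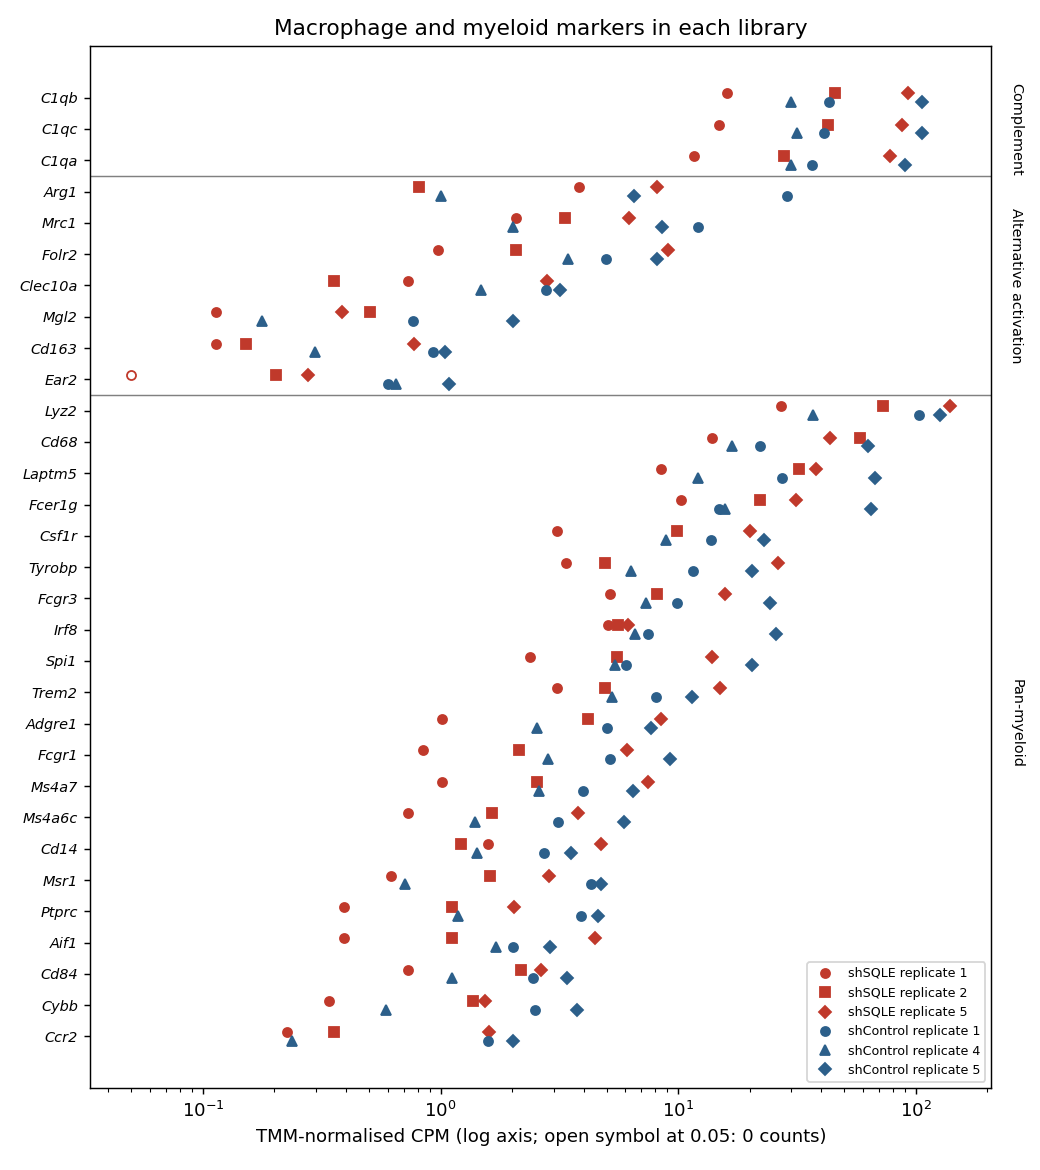
Level of each of the 31 genes in the 6 libraries, in TMM-normalised CPM on a log axis, with shSQLE libraries in red above shControl libraries in blue and the open symbol marking 0 counts. For most genes shSQLE replicate 1 is the leftmost point and shControl replicate 5 or shSQLE replicate 5 the rightmost, so the 2 colours interleave.

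Per transcript length (TPM, scaled for transcript length as well, averaged over the 6 libraries), the most abundant of the 31 was Lyz2, a lysozyme of macrophages and granulocytes, at 84.5 TPM. C1qb followed at 69.4 TPM, the Fc receptor chain Fcer1g at 63.6 TPM, C1qa at 60.2 TPM and C1qc at 59.7 TPM. At the low end stood Cd163, a scavenger receptor for haemoglobin, at 0.181 TPM, Ccr2 at 0.353 TPM and Cybb, the catalytic subunit of the phagocyte oxidase, at 0.417 TPM. The values of these scarce genes rest on few reads: Cd163 had between 2 and 19 counts per library.

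The complement and pan-myeloid genes were ordered across the libraries in much the same way, and the alternative activation genes less uniformly. Of the 31, 30 had enough counts to be tested and Mgl2, a lectin of alternatively activated macrophages, was left out with between 2 and 37 counts per library. Of the 30 tested, 26 had their lowest level in shSQLE replicate 1, where 11.0% of all 13268 tested genes were lowest. By class these were 3 of 3 complement, 20 of 21 pan-myeloid and 3 of 6 alternative activation genes. The highest level was in shControl replicate 5 for 20 of the 30, against 13.0% of all tested genes, and in shSQLE replicate 5 for 8, against 16.3% of all tested genes. In pairs of libraries, 30 of 30 were higher in shSQLE replicate 5 than in shSQLE replicate 1, against 49.3% of all tested genes. Likewise, 30 of 30 were higher in shControl replicate 5 than in shControl replicate 4, against 48.6% of all tested genes. Both of these comparisons lie within a group.

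The spread of the markers between libraries was wide. The biological coefficient of variation that edgeR estimates per gene had a median of 56.6% over the 30, from 43.9% for Irf8 to 90.8% for Arg1, against a median of 26.6% over all tested genes. Only 4.22% of the tested genes had a larger coefficient than the median of the 30. Within shSQLE, the highest library stood a median of 5.48 times above the lowest over the 30 genes with counts in every library, and within shControl a median of 3.39 times over all 31. For each of the 29 tested genes other than Ear2, the range inside one of the groups was larger than the fold change between the groups.

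**Figure D2:**
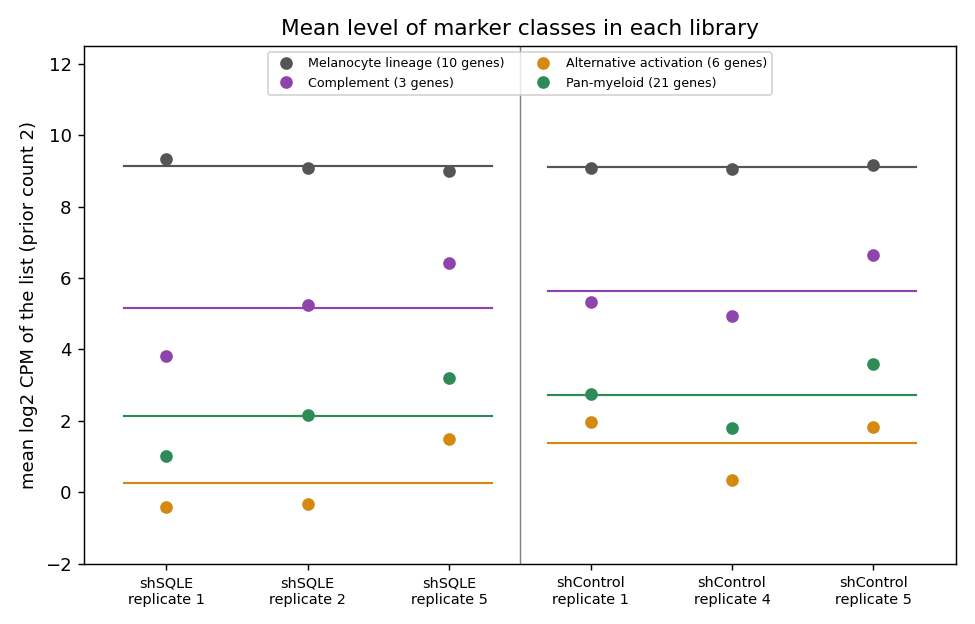
Mean log2 CPM of the tested genes of each class in the 6 libraries, with a horizontal line at each group's mean. The complement means lie between 3.82 and 6.65, the pan-myeloid means between 1.03 and 3.59 and the alternative activation means between -0.40 and 1.98, while the 10 melanocyte genes stay between 9.01 and 9.33.

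Promoters of 5 genes, with each class represented, are given here to show the letters that the myeloid factor PU.1 (Spi1), itself among the 31, is known to bind. RefSeq's GRCm38.p6 promoter table held 22 of the 31 genes, with 250 bases before and 50 bases from each start. The core letters GAGGAA of the PU.1 motif were searched on both strands and are in capitals (TTCCTC where they lie on the other strand).
C1qb, chr4:136886151-136886450, minus strand: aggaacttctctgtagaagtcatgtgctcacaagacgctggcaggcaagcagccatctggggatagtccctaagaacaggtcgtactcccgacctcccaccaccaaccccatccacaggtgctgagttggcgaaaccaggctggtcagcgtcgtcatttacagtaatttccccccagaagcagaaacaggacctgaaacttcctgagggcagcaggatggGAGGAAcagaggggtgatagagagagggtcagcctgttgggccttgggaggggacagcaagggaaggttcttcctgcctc
C1qc, chr4:136892865-136893164, minus strand: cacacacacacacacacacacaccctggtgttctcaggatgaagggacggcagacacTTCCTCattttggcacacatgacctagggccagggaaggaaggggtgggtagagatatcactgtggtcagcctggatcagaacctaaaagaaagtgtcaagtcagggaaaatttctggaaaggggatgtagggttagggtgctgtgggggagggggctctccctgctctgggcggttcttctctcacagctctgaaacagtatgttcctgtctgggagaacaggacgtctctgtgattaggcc
Mrc1, chr2:14229164-14229463, plus strand: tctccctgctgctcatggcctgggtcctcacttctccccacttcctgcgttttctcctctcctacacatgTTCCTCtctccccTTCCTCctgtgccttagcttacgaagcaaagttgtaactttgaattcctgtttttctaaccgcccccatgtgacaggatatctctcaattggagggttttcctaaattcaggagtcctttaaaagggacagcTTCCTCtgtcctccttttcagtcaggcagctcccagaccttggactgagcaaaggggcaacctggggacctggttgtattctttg
Laptm5, chr4:130913066-130913365, plus strand: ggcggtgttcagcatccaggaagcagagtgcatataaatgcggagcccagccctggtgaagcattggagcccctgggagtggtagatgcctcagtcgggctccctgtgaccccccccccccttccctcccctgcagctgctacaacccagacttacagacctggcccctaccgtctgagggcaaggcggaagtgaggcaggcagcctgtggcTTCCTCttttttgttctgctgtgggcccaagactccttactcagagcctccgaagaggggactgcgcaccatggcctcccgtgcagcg
Trem2, chr17:48346151-48346450, plus strand: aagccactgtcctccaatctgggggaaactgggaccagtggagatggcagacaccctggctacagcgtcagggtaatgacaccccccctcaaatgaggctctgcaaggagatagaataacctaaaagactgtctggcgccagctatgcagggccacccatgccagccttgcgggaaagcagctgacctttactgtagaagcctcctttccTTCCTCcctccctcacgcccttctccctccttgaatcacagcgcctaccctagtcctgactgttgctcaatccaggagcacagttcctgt
The letters begin 30 bases before the start in C1qb, 38 in Laptm5, 40 in Trem2 and 193 in C1qc, and Mrc1 has 3 copies, at 180, 167 and 35 bases before it. Of the 22 genes, 14 held GAGGAA in at least 1 promoter window, which is 63.6%, against 31.3% of the 27025 genes in the table. Promoters of Ccr2, Cd163, Ear2, Fcer1g, Folr2, Irf8, Lyz2 and Ms4a6c had no match in this window. The longer form GAGGAAGT was in 1 of the 22, C1qc, against 3.69% of all genes, and the composite element of PU.1 and IRF factors, whose letters can overlap the first motif, was in 3, against 3.16%. A match is a run of letters and not a measured binding site.

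The 3 complement genes varied together from library to library, and the groups overlapped for each of them. C1qa, the A chain, had 11.7, 27.8 and 78.1 CPM in shSQLE replicates 1, 2 and 5, against 36.5, 29.8 and 90.4 CPM in shControl replicates 1, 4 and 5. C1qb, the B chain, had 16, 45.8 and 92.5 CPM in the shSQLE libraries and 43.0, 29.8 and 106 CPM in the shControl libraries. C1qc, the C chain, had 14.8, 42.6 and 87.2 CPM in the shSQLE libraries and 41.3, 31.5 and 106 CPM in the shControl libraries. All 3 were lowest in shSQLE replicate 1 and highest in shControl replicate 5, and shSQLE replicate 5 stood above 2 of the 3 shControl libraries. The log2 fold changes, shSQLE over shControl, were -0.41 (SE 0.68) for C1qa, -0.21 (SE 0.66) for C1qb and -0.31 (SE 0.66) for C1qc. None passed edgeR's quasi-likelihood test, with unadjusted p of 0.562, 0.757 and 0.652 and a Benjamini-Hochberg adjusted p of 0.9996 for each. The median of the 3 was -0.31, against -0.02 over all tested genes, and it turned to 0.12 without shSQLE replicate 1 and to 0.41 without shControl replicate 5, while it was -1.04 without shSQLE replicate 5.

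The balance of the 3 chains was steadier than their level. Per transcript length, the ratio of C1qc to C1qb was 0.819, 0.824 and 0.835 in shSQLE replicates 1, 2 and 5, against 0.849, 0.934 and 0.892 in shControl replicates 1, 4 and 5. The ratio of C1qa to C1qb was 0.775, 0.643 and 0.894 in the shSQLE libraries, against 0.899, 1.06 and 0.907 in the shControl libraries. Neither ratio overlapped between the groups, though for the second the nearest libraries were 0.894 and 0.899. These are 2 of 11 ratios between the markers, chosen with their values in view and not tested.

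The genes of alternatively activated macrophages had lower group means in shSQLE, with large differences between libraries of one group and few reads for several of them. All 6 tested genes had a log2 fold change below 0, where 52.6% of all tested genes did, and their median was -1.04. One of them, Ear2, was tested only through its shControl libraries, which fixed its sign, and the other 5 had a median of -0.96. None passed edgeR's test, and the smallest adjusted p was 0.9996. The class mean was -0.40, -0.32 and 1.48 log2 CPM in shSQLE replicates 1, 2 and 5, whereas shControl replicates 1, 4 and 5 had 1.98, 0.34 and 1.84 log2 CPM, so the groups overlapped. The median stayed below 0 without each library in turn, at -2.18 without shSQLE replicate 5 and -0.68 without shControl replicate 1. These medians keep Ear2. The filter was rerun on the remaining libraries, and the median without shSQLE replicate 5 also includes Mgl2. With all libraries, Mgl2 reached the filter's level only in shControl libraries.

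Ear2, an eosinophil-associated ribonuclease that is also read as a marker of alternatively activated macrophages, had 0, 0.203 and 0.276 CPM in shSQLE replicates 1, 2 and 5, against 0.599, 0.649 and 1.09 CPM in shControl replicates 1, 4 and 5. These levels come from 0, 4 and 5 counts in the shSQLE libraries and 11, 11 and 20 counts in the shControl libraries, and a count of 0 in shSQLE replicate 1 allows up to 0.169 CPM. The groups did not overlap. The log2 fold change was -2.23 (SE 0.77), with an unadjusted p of 0.0184 and an adjusted p of 0.9996 in edgeR's test. Ear2 reached the filter's level of 0.535 CPM in the shControl libraries alone. As every shSQLE library lay below that level, the gene could be tested only if shControl was higher. It belongs to a family of closely related ribonuclease genes, and its deposited counts were whole in each library. The related genes Ear1 and Ear6, named after their values were seen, and the eosinophil granule genes Prg2 and Epx were at 0 in all 6 libraries.

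Mrc1, the mannose receptor, had 2.08, 3.35 and 6.23 CPM in shSQLE replicates 1, 2 and 5, against 12.1, 2.01 and 8.57 CPM in shControl replicates 1, 4 and 5. The lowest library of all was shControl replicate 4, so the groups overlapped, and the log2 fold change of -0.96 (SE 0.62) had an unadjusted p of 0.157. Arg1, the arginase that breaks down arginine, had the largest spread of the 30 and is given for that reason, after its values were seen. It had 3.83, 0.812 and 8.16 CPM in the shSQLE libraries and 28.8, 1.0 and 6.50 CPM in the shControl libraries. Like Mrc1, it was highest in shControl replicate 1. Its log2 fold change of -1.50 (SE 1.15) rested on shControl replicate 1, and without that library it was 0.18. Cd163, the folate receptor gene Folr2 and the lectin gene Clec10a had log2 fold changes of -1.12 (SE 0.78), -0.46 (SE 0.72) and -0.93 (SE 0.70). Counts of Folr2 were not whole, so some of its reads were shared with other genes. The untested Mgl2 had 0.113, 0.507 and 0.386 CPM in the shSQLE libraries and 0.763, 0.177 and 2.02 CPM in the shControl libraries.

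Of the 21 pan-myeloid genes, 20 had a log2 fold change below 0 and 1, Cd68, above it, with a median of -0.46. None passed edgeR's test, and the class mean overlapped between the groups, at 1.03, 2.17 and 3.19 log2 CPM in shSQLE replicates 1, 2 and 5, whereas shControl replicates 1, 4 and 5 had 2.75, 1.81 and 3.59 log2 CPM. The median was -0.02 without shSQLE replicate 1, turned to 0.16 without shControl replicate 5, and was -1.27 without shSQLE replicate 5 and -0.82 without shControl replicate 4.

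Among the surface receptors, Csf1r, the receptor for colony stimulating factor 1, had 3.08, 9.86 and 20.1 CPM in shSQLE replicates 1, 2 and 5, against 13.7, 8.87 and 23.0 CPM in shControl replicates 1, 4 and 5. Its log2 fold change was -0.46 (SE 0.61). Adgre1, an adhesion receptor used as a macrophage marker in mice, had 1.01, 4.16 and 8.50 CPM in the shSQLE libraries and 5.01, 2.54 and 7.70 CPM in the shControl libraries, a log2 fold change of -0.16 (SE 0.67) that turned to 0.32 without shSQLE replicate 1 and to 0.27 without shControl replicate 5. In both genes the lowest and one of the 2 highest libraries were shSQLE libraries. The other 7 receptors (Cd14, a co-receptor for endotoxin, the scavenger receptor Msr1, Ccr2, Trem2, the SLAM family member Cd84, and Ms4a7 and Ms4a6c of the MS4A family) had log2 fold changes between -0.93 and -0.03. Counts of Csf1r and Ms4a6c were not whole.

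None of the Fc receptor genes and signalling adaptors passed the test, and their groups overlapped. Fcgr1, the high-affinity receptor for IgG, stood at -0.93 (SE 0.68), Fcgr3, a low-affinity one, at -0.52 (SE 0.52), and Fcer1g, the gamma chain they signal through, at -0.59 (SE 0.64). Tyrobp, the adaptor of Trem2, stood at -0.15 (SE 0.77). Without shControl replicate 5 the values of Fcgr3, Fcer1g and Tyrobp turned to 0.17, 0.47 and 0.36. The 2 adaptors were not in a fixed proportion: per transcript length, Tyrobp over Fcer1g was 0.407, 0.276 and 1.04 in shSQLE replicates 1, 2 and 5, against 0.969, 0.496 and 0.389 in shControl replicates 1, 4 and 5. The extremes of that ratio were both shSQLE libraries.

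Cd68, a glycoprotein of lysosomes, had 13.9, 58.0 and 43.5 CPM in shSQLE replicates 1, 2 and 5, against 22.2, 16.9 and 62.9 CPM in shControl replicates 1, 4 and 5. It was named after its values were seen, as the one gene with a positive log2 fold change (0.18, SE 0.62). Its sign depended on single libraries, being -0.24 without shSQLE replicate 2, -0.05 without shControl replicate 1 and -0.14 without shControl replicate 4. Lyz2 stood at -0.15 (SE 0.61), Aif1, an actin-binding protein of macrophages, at -0.15 (SE 0.73), and Cybb at -1.07 (SE 0.72).

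Ptprc, the CD45 phosphatase of all white blood cells, had the second smallest unadjusted p of the pan-myeloid genes. It had 0.394, 1.12 and 2.04 CPM in shSQLE replicates 1, 2 and 5, against 3.92, 1.18 and 4.59 CPM in shControl replicates 1, 4 and 5. The groups overlapped at shSQLE replicate 5 and shControl replicate 4, and the log2 fold change was -1.44 (SE 0.66, 95% confidence interval -2.94 to 0.05, unadjusted p = 0.0571, adjusted p = 0.9996 by edgeR). Laptm5, a lysosomal membrane protein of blood cells, stood at -0.44 (SE 0.69).

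Of the transcription factors, Spi1 followed the other markers, with 2.37, 5.53 and 13.9 CPM in shSQLE replicates 1, 2 and 5, against 6.05, 5.43 and 20.5 CPM in shControl replicates 1, 4 and 5. Its log2 fold change was -0.55 (SE 0.71), and 0.34 without shControl replicate 5. Irf8, an interferon-responsive factor of monocytes, dendritic cells and B cells, rose in the same library order as Spi1 inside shSQLE, but far less. It had 5.07, 5.58 and 6.18 CPM in the shSQLE libraries, a range of 1.22 times, against 7.46, 6.61 and 25.7 CPM in the shControl libraries. The groups did not overlap, and the log2 fold change was -1.24 (SE 0.50, unadjusted p = 0.0356, adjusted p = 0.9996 by edgeR). Without shControl replicate 5 it was -0.33. Per transcript length, Irf8 over Spi1 was 1.62, 0.764 and 0.336 in the shSQLE libraries, against 0.934, 0.921 and 0.949 in the shControl libraries.

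Over the 31 genes, edgeR called 0 at the adjusted threshold of 0.05, and 0.0% of all tested genes were called. Without adjustment 3.11% of all tested genes had a p under 0.05, and 6.43% had groups that did not overlap, in either direction. At an unadjusted p under 0.05, 2 of the 30 tested were lower in shSQLE, Ear2 and Irf8, against 1.62% of all tested genes, and these were also the 2 whose groups did not overlap, against 3.35% of all tested genes being lower in shSQLE without overlap. Neither share is read as a result about the markers, since Ear2 was tested only through its shControl libraries. By DESeq2, 3 of the 30 had an unadjusted p under 0.05, against 471 of the 13268 tested genes. At the adjusted threshold DESeq2 called 0 of the 30, and 0.0453% of the genes with an adjusted p. Of the 30 confidence intervals, 28 included 0, and the widest reach was from -4.22 for Arg1 to 1.64 for Tyrobp. Of the 30 log2 fold changes, 29 were below 0, but 17 were below 0 without shSQLE replicate 1 and 14 without shControl replicate 5, and the median over the 30 was -0.49 with all libraries and 0.07 without shControl replicate 5.

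**Figure D3:**
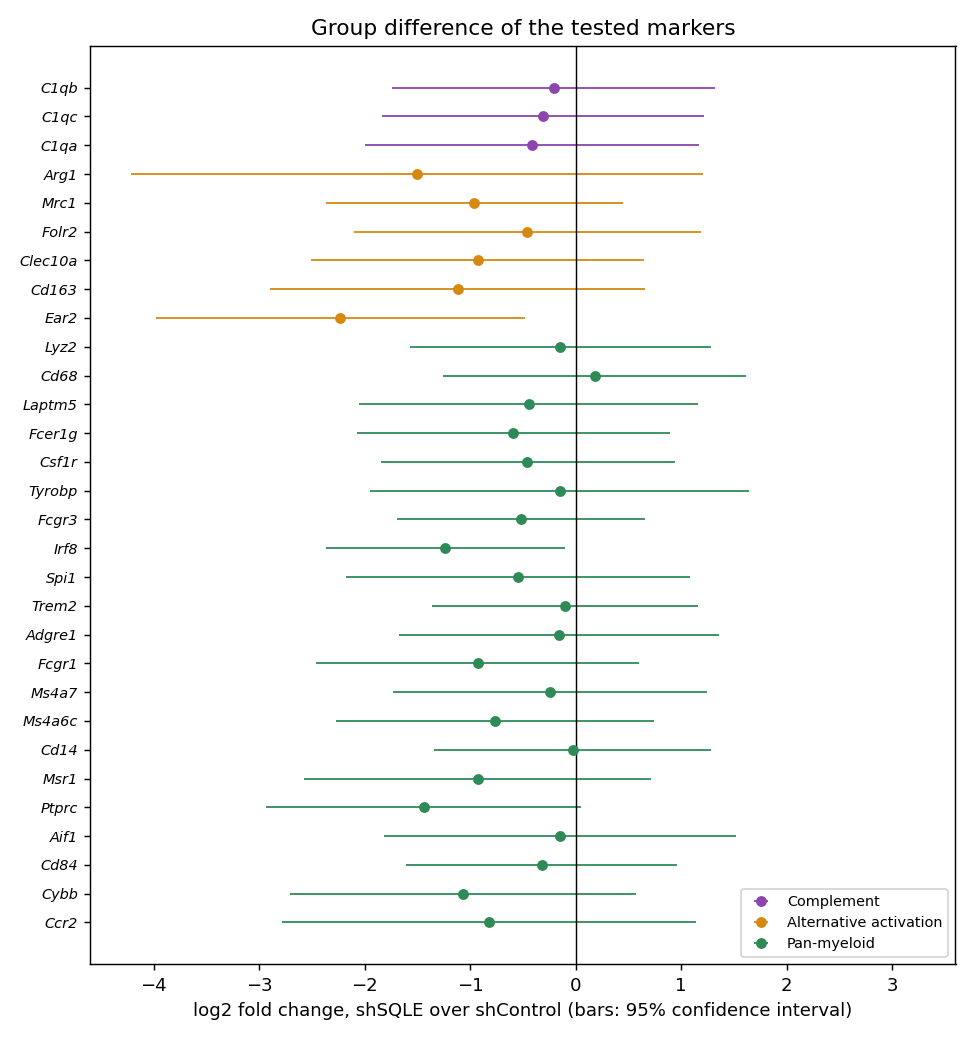
Log2 fold change of the 30 tested genes, shSQLE over shControl, with 95% confidence intervals as bars and the 3 classes in colour. The points lie between -2.23 (Ear2) and 0.18 (Cd68), and only the intervals of Ear2 and Irf8 leave out 0.

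The shared library pattern was taken out by subtracting, in each library, the mean log2 CPM of the pan-myeloid genes, with the gene in question left out of that mean. This lowered the SD over the 6 libraries for 30 of 30 genes, from a median of 1.07 to a median of 0.46 on the log2 scale. What remained was smallest for Ms4a6c (SD 0.15) and largest for Arg1 (SD 1.64). Ear2 (0.83), Clec10a (0.80), Irf8 (0.73) and Cd68 (0.70) came next. Clec10a was 1.53 below its average relative level in shSQLE replicate 2, where Cd68 was 1.23 above its own.

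**Figure D4:**
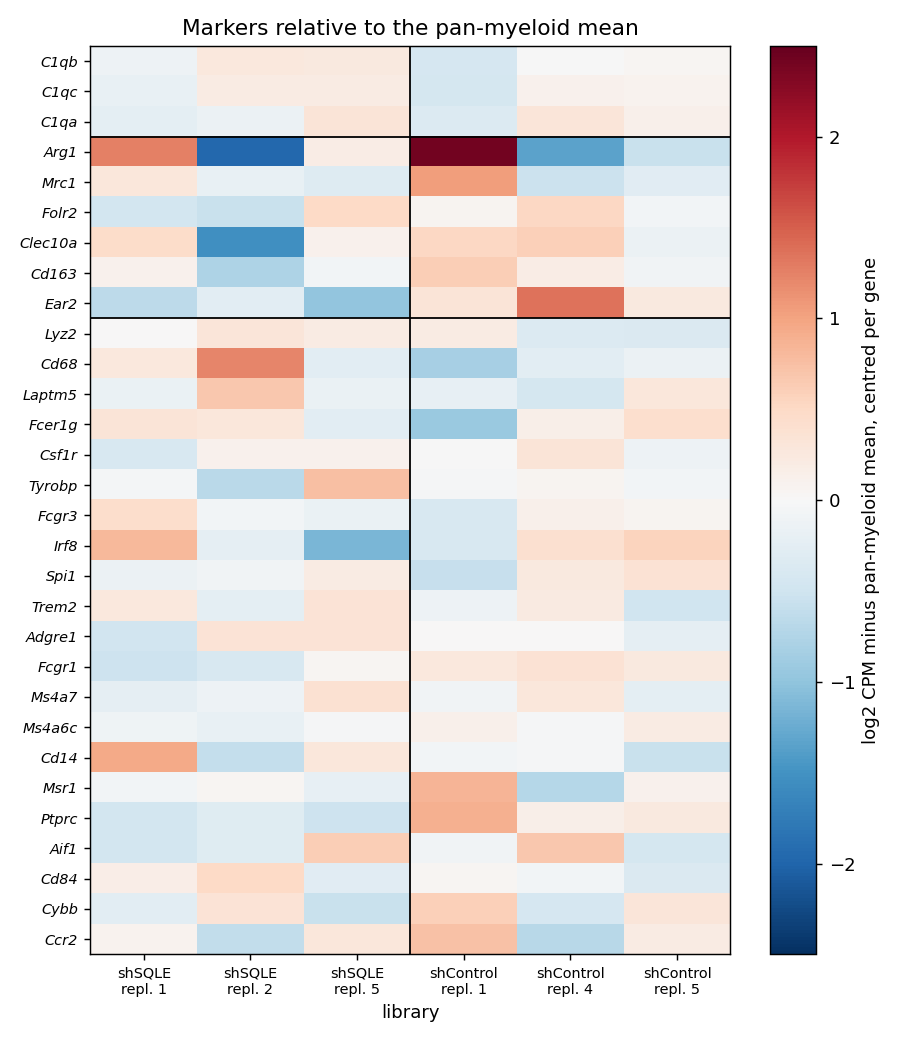
Log2 CPM of each tested gene minus the pan-myeloid mean of the same library, centred on the gene's average over the 6 libraries, with shSQLE libraries on the left. Arg1 reaches 2.42 in shControl replicate 1 and -1.97 in shSQLE replicate 2, while the 3 complement genes stay within 0.43 of 0.

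Set against the pan-myeloid mean, the complement class differed between the groups by less than its spread, and the alternative activation class was lower in shSQLE by about its spread with Ear2 and by less without it. The complement mean exceeded the pan-myeloid mean by 3.04 ± 0.22 log2 units in shSQLE and 2.92 ± 0.29 in shControl (SD, n = 3 each). The alternative activation mean differed from it by -1.87 ± 0.55 in shSQLE and -1.33 ± 0.50 in shControl (SD, n = 3 each). In single libraries that difference was -1.43, -2.48 and -1.70 in shSQLE replicates 1, 2 and 5, against -0.77, -1.47 and -1.75 in shControl replicates 1, 4 and 5, and the groups overlapped. The gap between the group means was -0.54, and it was -0.23 without shSQLE replicate 2 and -0.26 without shControl replicate 1. Without Ear2, whose sign was fixed by the filter, the gap was -0.39, between means of -1.41 ± 0.71 in shSQLE and -1.01 ± 0.64 in shControl (SD, n = 3 each).

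Of the 30 genes, 4 were lower in every shSQLE library than in every shControl library on this relative scale (Ear2, Fcgr1, Ms4a6c and Ptprc) and 0 were higher, though for Ms4a6c the nearest libraries were -0.03 and -0.02 and Ear2 was tested only through shControl. Of all tested genes, 0.128% were lower and 1.53% higher in this way, but these shares are not like for like, since subtracting the mean adds the myeloid library pattern to genes that lack it. The count is therefore a description. For Ptprc the relative level was -0.45, -0.30 and -0.52 in shSQLE replicates 1, 2 and 5, against 0.89, 0.15 and 0.24 in shControl replicates 1, 4 and 5. The same is seen in ratios per transcript length: C1qb over Ptprc was 205, 207 and 228 in the shSQLE libraries, against 55.3, 127 and 116 in the shControl libraries. Laptm5 over Ptprc was 40.3, 54.3 and 35.0 in the shSQLE libraries, against 13.1, 19.3 and 27.7 in the shControl libraries. Few reads stand behind Ptprc in both ratios: 7, 22 and 37 counts in the shSQLE libraries and 72, 20 and 84 in the shControl libraries. Across the 11 ratios computed, 4 did not overlap between the groups. These 4 hold either Ptprc or C1qb, so they are not independent of each other, and none was tested.

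Other genes of the same pathways, from wider lists, shared the library order of the 31 in part. Of 34 further pan-myeloid genes, all tested, 29 had a log2 fold change below 0 and 5 above it, with a median of -0.56. None passed edgeR's test, and 26 of the 34 were highest in shControl replicate 5, while 21 were lowest in shSQLE replicate 1 and 11 in shControl replicate 4. The endotoxin receptor Tlr4, one of the 2 with the smallest p, stood at -0.60 (SE 0.37). Of 17 other complement genes, 13 were tested, 12 of them below 0 (median -0.74), led by C4b of the classical pathway at -1.45 (SE 0.59) and the protease gene C1s1 at -0.74 (SE 0.38). Of 20 other genes of alternative activation, 13 were tested, 10 of them below 0 (median -0.32), led by the fatty acid transporter Cd36 at -1.84 (SE 0.78) and Pparg at -1.38 (SE 0.72). Of those 13, 6 were highest in shControl replicate 1 and 3 in shControl replicate 5. Cd36 and Pparg are also expressed by fat cells. The 8 adipocyte markers summed to 102, 130 and 113 CPM in shSQLE replicates 1, 2 and 5, against 117, 102 and 322 CPM in shControl replicates 1, 4 and 5. Of that sum, 52.7 to 158 CPM was Pnpla2, named after its values were seen. The mean of the 5 tested adipocyte markers was 1.33, 2.06 and 2.67 log2 CPM in the shSQLE libraries. In the shControl libraries it was 3.46, 1.74 and 5.22 log2 CPM, highest in replicate 5 and next in replicate 1. All 5 had a log2 fold change below 0 (median -1.83) and none passed edgeR's test. The part of fat cells in the result was not tested.

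Genes for ligands of myeloid cells gave no call either. Of 13, 7 were tested and all 7 had a log2 fold change below 0, with a median of -0.35. The monocyte chemokines Ccl7 and Ccl2 stood at -1.27 (SE 0.63) and -0.89 (SE 0.58). Csf1, the main ligand of Csf1r, had 1.41, 8.17 and 4.63 CPM in shSQLE replicates 1, 2 and 5, against 6.21, 2.66 and 9.23 CPM in shControl replicates 1, 4 and 5, and is named after its values were seen. Il4 and Il13, the cytokines of alternative activation, were at 0 in all 6 libraries.

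Markers of other white blood cells were mostly scarce. Of 12 neutrophil markers 4 passed the filter, and Ly6g and Camp, which define mature and maturing neutrophils, were at 0 in all 6 libraries. Of the 4 tested, 3 had a log2 fold change above 0 and 1 below it, with a median of 0.43. S100a9 stood at 1.07 (SE 0.83) and S100a8 at 0.60 (SE 1.11), and none of the 4 passed edgeR's test. Summed, the 12 reached 6.59, 3.70 and 10.5 CPM in shSQLE replicates 1, 2 and 5 and 8.28, 2.60 and 5.52 CPM in shControl replicates 1, 4 and 5. The T cell list (3 of 13 tested) summed to between 8.33 and 11.3 CPM in shSQLE and between 7.48 and 25.5 CPM in shControl. Of that sum, Lck had 4.52 to 10.2 CPM, while the T cell receptor gene Cd3e had 0.113 to 1.75 CPM. The natural killer list (1 of 9 tested) summed to between 0.451 and 2.15 CPM in shSQLE and between 1.89 and 9.78 CPM in shControl. Both lists were highest in shControl replicate 5, the library in which Ptprc and Irf8 were also highest, and their part in those values was not tested. Of the B cell list 2 of 7 were tested. Cd79a had 2.1 to 4.04 CPM and Cd79b 0.394 to 0.874 CPM, while the B cell antigen Ms4a1 did not exceed 0.113 CPM. The dendritic list (4 of 10 tested) summed to 38.9, 115 and 93.7 CPM in shSQLE replicates 1, 2 and 5, against 56.4, 35.0 and 68.2 CPM in shControl replicates 1, 4 and 5. Most of that sum was the actin-bundling gene Fscn1, at 28.5 to 105 CPM, while Zbtb46 had 3.97 to 6.43 CPM, Itgax 0.282 to 4.48 CPM and the receptor Xcr1 at most 0.164 CPM. Of the mast cell list 1 of 7 was tested, and of the eosinophil list 0 of 7.

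Markers of the stroma moved with the myeloid ones in part. The list mean of 11 fibroblast markers was 2.05, 3.24 and 3.81 log2 CPM in shSQLE replicates 1, 2 and 5, and in shControl replicates 1, 4 and 5 it was 3.78, 2.73 and 4.24 log2 CPM, and the 6 libraries stood in the same order as by the mean over the 30 tested myeloid genes. The part of stromal content in the myeloid levels was not tested. Endothelial markers differed in order, with the highest mean in shControl replicate 1, at 3.64 log2 CPM. Skeletal muscle markers stood apart, with the highest mean in shSQLE replicate 5, at 6.54 log2 CPM. The 10 melanocyte genes had a median log2 fold change of 0.09.

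The knockdown itself was present in each shSQLE library: Sqle averaged 71.4 ± 5.24 CPM in shSQLE and 148 ± 2.71 CPM in shControl (SD, n = 3 each; two-sided exact permutation p = 0.1, the smallest that 3 against 3 allows). Its log2 fold change was -1.05 (SE 0.17), with an unadjusted p of 0.000173 and an adjusted p of 0.9996 in edgeR's test. Total expected counts per library were between 16408622 and 19142185. The Sqle levels spread far less within a group than those of most of the 31 genes did, though Irf8 ranged only 1.22 times within shSQLE.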

How the data were processed

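RNA sequencing of 6 tumour libraries was analysed from 1 deposited table. The submitters' processing notes name the build GRCm39 and the tools STAR, RSEM, FastQC and DESeq2. Versions, annotation release and strand setting are not stated there. The authors deposited expected counts, which divide reads that match several genes, with a length and an effective length per gene. The expected counts were rounded and filtered with edgeR's filterByExpr (minimum count 10, minimum total 15), leaving 13268 genes. TMM factors were 0.928 to 1.12. Groups were compared over all genes by the quasi-likelihood method of edgeR 4.0.16 (R 4.3.3, robust=TRUE, no term but group), with p-values adjusted by Benjamini-Hochberg at a 0.05 threshold. The SE is the log2 fold change divided by the square root of F. CPM are TMM-normalised, log2 CPM use a prior count of 2, and TPM were computed from the deposited effective lengths. Promoters came from RefSeq (GRCm38.p6). The fit was first tested on data simulated with a biological coefficient of variation of 30.4% for every gene and no shared library pattern. The markers had a median of 56.6%, so that test does not cover their spread.

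The 31 genes, the other lists and the rules were chosen with earlier results of these data known. Values per library are given for the complement genes, for the 2 genes with the smallest p in each other class, and for Ptprc, Adgre1, Csf1r, Spi1 and Irf8. The 2 genes with the smallest p in each further list may be named, and genes outside this rule are said to be chosen after their values were seen, apart from defining markers at or near 0. Mgl2, Cd3e and Itgax also lie outside this rule and were named with their values known. A further gene that this rule would name is not reported here. Limits on a count of 0 use 3 counts and cover counting error only. Alternatives were other scalings and filters, prior counts of 0.5 and 5, an adjusted p of 0.1, DESeq2 (1.42.0, adjusted p missing for 21 genes), limma voom (3.58.1), robust=FALSE, a replicate block and each library left out. Figures were drawn with matplotlib 3.10.9.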

Additional observations from a re-analysis of the deposited data

How the results depend on the processing

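None of the 30 tested markers was called under any of the alternatives run. Across all genes edgeR called 0, DESeq2 called 6, the replicate block called 41, and leaving out each library called 0 to 31, the 31 without shSQLE replicate 1. By DESeq2, the log2 fold change of Sqle was -1.05, with adjusted p = 8.84e-05. Scaling, filter and test alternatives turned no marker's sign. Leaving out each library in turn gave medians of -1.39 to 0.07 over the tested markers, -1.04 to 0.41 for complement, -2.18 to -0.68 for alternative activation and -1.27 to 0.16 for pan-myeloid genes. The filter was rerun each time, and Mgl2 entered some of these medians. The complement minus pan-myeloid gap ranged from -0.05 to 0.24 and that of alternative activation from -0.76 to -0.23. Both alternative activation ranges keep Ear2, so they cannot show whether the sign of that class holds apart from the filter. Without Ear2, an alternative chosen after seeing the data, the median over the remaining 29 markers was -0.46, and 28 were below 0.

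Among single genes whose sign turned when a library was left out, log2 fold changes ranged from -1.39 to 0.24 for C1qa, -0.93 to 0.50 for C1qb, -1.04 to 0.41 for C1qc, -1.84 to 0.01 for Folr2, -2.38 to 0.18 for Arg1, -0.95 to 0.32 for Adgre1, -0.24 to 0.98 for Cd68 and -0.87 to 0.30 for Cd14. The ranges were -0.81 to 0.27 for Lyz2, -1.52 to 0.34 for Aif1, -1.27 to 0.20 for Ms4a7, -1.61 to 0.36 for Tyrobp, -0.97 to 0.47 for Fcer1g, -1.02 to 0.28 for Trem2, -1.04 to 0.17 for Fcgr3, -0.65 to 0.06 for Cd84, -0.85 to 0.41 for Laptm5 and -1.42 to 0.34 for Spi1. Fewer libraries enter these fits, and the cause was not tested further.

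Replicate numbers 1 and 5 occur in both groups, but deviations from the group means correlated at -0.13 for the number 1 libraries and 0.07 for the number 5 libraries, so the numbers were not taken to pair the libraries. With the replicate block, all 30 markers were below 0 and Cd68 turned to -0.60. By edgeR, 17 of the 30 then had an unadjusted p under 0.05, against 1094 of the 13268 tested genes. The lowest adjusted p of a marker was 0.125. Replicate 2 occurs only in shSQLE and replicate 4 only in shControl, so the group difference in that fit rests on replicates 1 and 5 alone. Between the replicate 1 libraries, 30 of 30 markers were higher in shControl, against 51.0% of all tested genes. Between the replicate 5 libraries 21 of 30 were, against 50.1% of all tested genes. The scarce genes (Cd163, Ccr2, Ear2, Mgl2) are limited by depth.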
